A study of Drosophila melanogaster with 24 samples.

Results

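The embryos compared here were the 12 single gastrulae (Bownes Stage 8, around 4 h after egg laying, after zygotic genome activation, ZGA) among the 24 single *Drosophila melanogaster* embryos of the series, divided into 4 male-like and 8 female-like embryos by the RNA level of *msl-2*. An embryo was classed as male-like if *msl-2* exceeded 100 CPM (counts-per-million) of all its counts and as female-like otherwise. The male-like embryos were 2 of the 6 AcfC embryos (replicates 2 and 3) and 2 of the 6 wild-type embryos (replicates 5 and 6). The female-like embryos were the other 4 AcfC embryos (replicates 1, 4, 5 and 6) and the other 4 wild-type embryos (replicates 1 to 4). The sample labels give no sex, so the classes rest on this single gene.

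AcfC is a CRISPR/Cas9 deletion of *Acf*, the gene of the large subunit of the nucleosome remodelers ACF and CHRAC, and was backcrossed to Oregon-R (*OrR*), the wild-type strain (WT) of the series, for several generations. Before that, the deletion had been made in *yw* embryos carrying *Cas9*, crossed to another strain and backcrossed to *yw*. How much sequence of these strains remained in the AcfC embryos was not tested. Each library came from 1 hand-picked embryo staged by morphology under oil. *Acf* itself lay between 37.7 and 60.2 CPM in the AcfC embryos and between 431.2 and 456.9 CPM in the WT embryos of this stage. The count table held 17370 genes, and the 12 embryos had 4213692 to 11614741 counts, of which 43.2 to 52.7% fell on rRNA genes and 2173199 to 6063955 on other genes. Nothing in the sources used here says from which cross the males received their Y chromosome, or that embryos came from separate mothers.

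In *Drosophila* the sex of the embryo is set by the dose of the X chromosome. Female embryos carry a pair of X chromosomes, whose dose of X-linked activators switches on the early promoter of *Sex-lethal* (*Sxl*). SXL protein then maintains its own productive splicing and blocks translation of *msl-2*, which encodes the subunit that limits assembly of the male-specific lethal (MSL) complex. Male embryos have a single X and a Y chromosome, make no early SXL and assemble the MSL complex. That complex, with the *roX* RNAs, coats the male X and, through the acetyltransferase MOF, raises transcription of X-linked genes towards the level of females. Gastrulation falls in the period when this dosage compensation is being set up, while much of the embryo's RNA still comes from the mother.

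The class marker left a wide gap. In male-like embryos, *msl-2* (FBgn0005616, 2L:3462218-3466112, minus strand) reached 142.9 and 154.6 CPM of all counts in AcfC and 146.7 and 158.2 CPM in WT, against 25.4, 36.6 and 40.3 CPM (lowest, median and highest) in the 8 female-like embryos. The member closest to the limit from above thus stood at 142.9 CPM, and the closest from below at 40.3 CPM. At Stage 3, before ZGA, the 12 other embryos of the series had 2.99 to 5.50 CPM and could not be classed. Since *msl-2* chose the classes, it was not tested.

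*Sxl* and the genes of the Y chromosome, neither of which entered the rule, sorted the same embryos. *Sxl* (FBgn0264270, X:7074550-7098053, minus strand, positions in genome Release 6 throughout) had 318.9 and 287.1 CPM in the male-like AcfC embryos and 382.0 and 325.0 CPM in the male-like WT embryos, against 1056, 1158 and 1248 CPM (lowest, median, highest) in female-like embryos. The classes lay far apart. Each library holds a whole embryo, so that fewer cells with an RNA and less RNA per cell cannot be told apart. The difference was a log2 fold change of −1.83 ± 0.08 (SE, male-like over female-like, n = 4 and 8; adjusted p = 3.4e-08 in edgeR's quasi-likelihood test over 7858 genes). This was a 3.55-fold lower level in male-like embryos. Except for Y counts, CPM values from here on are relative to the counts on tested genes alone, scaled by the TMM method.

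Y-linked genes gave 435 and 488 counts in the male-like AcfC embryos and 82 and 186 counts in the male-like WT embryos, against 0, 4 and 8 counts (lowest, median, highest) in female-like embryos. In CPM of all non-rRNA counts, without TMM scaling, this was 58.9 ± 33.8 in male-like and 0.744 ± 0.511 in female-like embryos (SD, n = 4 and 8; exact permutation test within genotype, p = 0.00444, the smallest that the 225 splits allow). Of the 113 Y genes in the table, 53 had any count in male-like and 4 in female-like embryos. The pseudogene *CR41506* held 23 of the 27 counts of the female-like embryos and had 17 counts in the male-like embryos, so that it did not follow the classes. It was also the most counted Y gene at Stage 3, when an embryo had at most 29 counts on the Y.

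**Figure D1:**
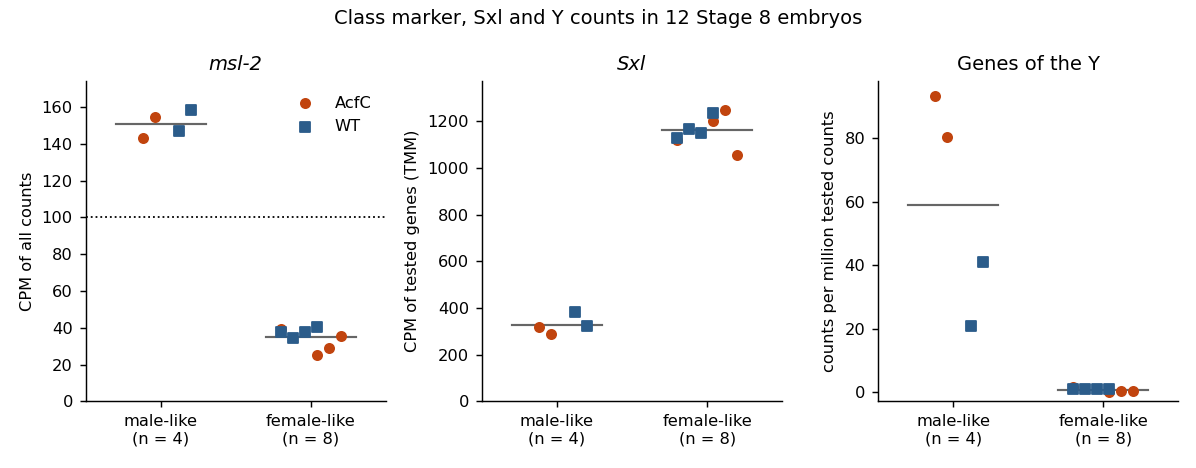
Levels of *msl-2* (CPM of all counts, dotted line at the limit of 100), *Sxl* (CPM of tested genes) and all Y genes in the 4 male-like and 8 female-like Stage 8 embryos. Y genes are in CPM of all non-rRNA counts, which the axis labels as tested counts. Each point is 1 embryo (circles AcfC, squares WT), and grey lines are class means. No embryo of one class reaches the range of the other in any panel, and the male-like AcfC embryos lie above the male-like WT embryos on the Y.

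The Y genes with the most counts in male-like embryos were pseudogenes. *CR46150* (Y:3258406-3259223) had 131 and 140 counts in male-like AcfC, 12 and 44 counts in male-like WT and 0 counts in every female-like embryo. *CR40801* (Y:3267088-3268196) had 59 and 57 counts in male-like AcfC and 15 and 12 counts in male-like WT embryos, against a single count among the female-like embryos. Protein-coding Y genes were read at lower counts. *FDY*, a young Y gene copied from an autosome, had 29 and 24 counts in male-like AcfC and 6 and 7 counts in male-like WT embryos. The fertility factors *kl-2*, *kl-3* and *kl-5*, which encode dynein heavy chains of the sperm tail, had 41, 31 and 23 counts over the 4 male-like embryos and 0 counts in the female-like embryos. Of the 19 Y genes with at least 10 counts over the male-like embryos, 16 had 0 counts in all female-like embryos. Only 2 Y genes, *CR46150* and *CR40801*, passed the filter on low counts, and they did so through the male-like embryos alone, so no fold is given for them.

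Y counts in CPM of all non-rRNA counts were 2.81 times higher in male-like AcfC than in male-like WT embryos, and 14 of those 19 genes were higher in both AcfC males than in both WT males. This was not tested across embryos, since 2 embryos against 2 can give no small p. In edgeR's test of male-like AcfC over male-like WT embryos, 2 of the 7858 genes were called (0.0255%), *Acf* itself and *Idgf2* on 2L, and neither tested Y gene was among them. The WT males were both from replicates 4 to 6 and the AcfC males both from replicates 1 to 3, so genotype and library set cannot be told apart here.

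Across the transcriptome, male-like embryos differed from female-like embryos on the X chromosome above all. Of 7858 genes tested, 587 (7.47%) were called at an adjusted p under 0.1, 85 higher (1.08%) and 502 lower (6.39%) in male-like embryos. The X carried 492 of the 502 lower calls (98.0%). Of the 10 other lower calls, 8 were genes with no entry in the annotation used here, whose chromosome was not determined. Of its 1316 tested genes, 492 were called lower and 27 higher, and in 325 and 19 of these the male-like and female-like embryos did not overlap. Over all genes, called or not, the classes did not overlap in 5.12%, with the male-like embryos below in 4.36% and above in 0.751%. On the arms 2L, 2R, 3L and 3R, 55 of 6332 genes were called (0.869%), 54 of them higher and 1, the zygotic gene *CG8654* (−0.58, adjusted p = 0.0734), lower. When TMM factors were taken from autosomal genes alone, the 56 higher and 10 lower calls not placed on X or Y became 32 and 15. The median of all genes moved to −0.03, against 0.02 with all genes. When the comparison was limited to the replicate sets that held both classes (AcfC replicates 1 to 3 and WT replicates 4 to 6), 136 genes were called in 6 embryos, 112 of them X genes lower in male-like embryos. Without AcfC replicate 3, 385 genes were called.

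The fold changes of X genes differed with the origin of their RNA, which is described here by medians over genes. A gene was counted as zygotic if its median over the 12 Stage 3 embryos was under 1 CPM, as maternal if it was at least 10 CPM, and as intermediate between these. The 217 zygotic X genes had a median log2 fold change of −0.73 (quartiles −0.96 and −0.46), the 93 intermediate X genes −0.47, and the 1006 maternal X genes −0.35 (quartiles −0.52 and −0.11). Autosomal genes of the same origin had medians of −0.06 (1359 zygotic), 0.04 (499 intermediate) and 0.05 (4474 maternal). A gene read from a single uncompensated X, with no maternal RNA, would stand at −1. Below that value lay 48 of the 217 zygotic X genes and 24 of the 1359 zygotic autosomal genes. Median SEs of zygotic X genes were 0.29 to 0.40 by level. Some of the 217 also passed the filter on low counts through the female-like embryos, so nothing is read from the 48. Of the zygotic X genes 212 lay below 0, of the maternal X genes 827. The zygotic medians depended on the model. With each embryo's share of maternal counts as a covariate they were −0.54 on the X and 0.07 on the autosomes. Within the replicate sets that held both classes they were −0.52 and 0.03. The difference between the X and autosomal zygotic medians was −0.71 to −0.55 over all alternatives.

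Fewer zygotic than maternal X genes were called lower, 40 (18.4%) against 435 (43.2%), although their median fold was larger. Their levels were lower and the standard errors larger. In the low, middle and high tercile of zygotic X genes by level the median SE was 0.40, 0.33 and 0.29, and 12.5, 19.4 and 23.3% were called lower. In those of maternal X genes it was 0.19, 0.11 and 0.09, and 23.6, 60.0 and 46.1% were called lower. The high zygotic tercile (7.48 to 1899 CPM) thus had a larger median SE than the low maternal tercile (1.57 to 28.8 CPM). Why the share called differed was not tested. Median fold changes of the zygotic X genes were −0.75, −0.80 and −0.60 in the low, middle and high tercile.

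The shift ran along the whole chromosome. In successive stretches of 5 Mb from the left tip, the zygotic X genes had medians of −0.73 (50 genes), −0.73 (45), −0.69 (54) and −0.68 (58), and the 10 zygotic genes beyond 20 Mb had −0.97. Maternal X genes had medians of −0.36, −0.30, −0.31 and −0.39 in these stretches and −0.43 beyond 20 Mb (66 genes). The zygotic median was lower than the maternal one in every stretch.

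**Figure D2:**
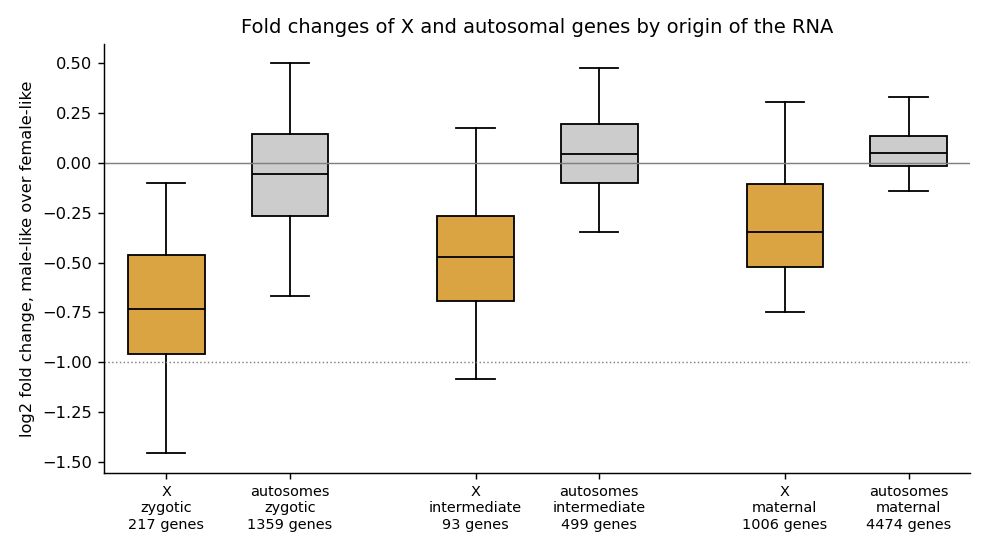
Log2 fold change of male-like over female-like embryos for X genes (orange) and genes of 2L, 2R, 3L and 3R (grey) by origin class, set by the RNA level at Stage 3. Boxes span the quartiles, black lines are medians and whiskers reach the 5th and 95th percentiles, and the dotted line marks −1. Zygotic X genes are centred on −0.73 and maternal X genes on −0.35, whereas the autosomal boxes lie around 0.

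Maternal X genes were further divided by what their RNA did from Stage 3 to Stage 8, a division chosen after the medians by chromosome had been seen. Where the level had fallen by over 1 on the log2 scale (387 genes), the median log2 fold change of male-like over female-like embryos was −0.32. It was −0.44 where the level had fallen by less (302 genes), −0.26 where it had risen by up to 1 (255 genes) and −0.37 where it had risen by more (62 genes). Autosomal maternal genes had medians of 0.08, 0.05, 0.04 and 0.02 in the same divisions. The maternal X genes thus did not order by the loss or gain of their RNA.

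Summed over genes, each embryo's X to autosome ratio gave the same separation without a test on single genes. For zygotic genes the summed counts on X over those on 2L, 2R, 3L and 3R were 0.0891 and 0.102 in male-like AcfC and 0.0858 and 0.0825 in male-like WT embryos, against 0.120, 0.124 and 0.152 (lowest, median, highest) in female-like embryos. All male-like embryos lay below all female-like embryos. On the log2 scale the difference was −0.51, a ratio 0.701 times that of female-like embryos (exact permutation test within genotype over 225 splits, p = 0.00444, the smallest possible; adjusted p = 0.00556 over 5 such tests). It was −0.49 in AcfC and −0.54 in WT, and −0.42 and −0.51 within the single replicate set of each genotype that held both classes. The sum is weighted towards abundant RNAs, and zygotic X genes in the highest tercile by level also had the smallest median fold change, −0.60.

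The maternal X genes gave a narrower spread. Their X to autosome ratios were 0.185 and 0.184 in male-like AcfC and 0.187 and 0.183 in male-like WT embryos, against 0.214, 0.224 and 0.235 (lowest, median, highest) in female-like embryos. The log2 difference was −0.28 (ratio 0.826; exact permutation p = 0.00444, adjusted p = 0.00556), with −0.32 in AcfC and −0.23 in WT. Over all genes it was −0.29 (ratio 0.818; same exact p and adjusted p). Among female-like embryos the 4 AcfC embryos lay above the 4 WT embryos for maternal and for all genes, which was not tested. *msl-2*, *roX1*, *roX2* and *Sxl* were left out of these sums.

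**Figure D3:**
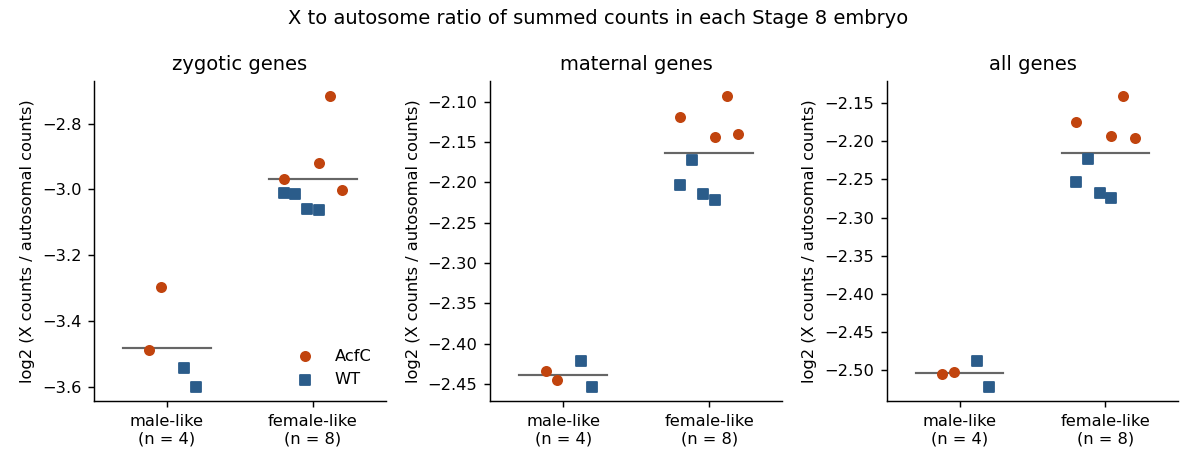
Log2 ratio of summed counts on X genes to summed counts on genes of 2L, 2R, 3L and 3R in each Stage 8 embryo, for zygotic, maternal and all tested genes. Each point is 1 embryo (circles AcfC, squares WT) and grey lines are class means (the vertical axes differ between panels and do not start at 0). Every male-like embryo lies below every female-like embryo in each panel, with a difference of −0.51 for zygotic and −0.28 for maternal genes.

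Chromosome 4, the small autosome related in origin to the X, did not pass the test over both genotypes. Its summed counts over those of the large autosomes were 0.0222 to 0.0278 in male-like and 0.0234 to 0.0268 in female-like embryos (log2 difference −0.02, exact permutation p = 0.809), with −0.15 in AcfC and 0.11 in WT. A single gene of 80, *CG31999*, was called, lower at −0.49 in male-like embryos. The 22 zygotic genes of chromosome 4 had a median log2 fold change of −0.33 gene by gene, with −0.83 in AcfC and 0.12 in WT, and all 80 genes had medians of −0.28 and 0.15. The summed ratio of the 22 zygotic genes, added after their median was seen, differed by 0.03 (exact permutation p = 0.698), with −0.12 in AcfC and 0.19 in WT. The directions were thus opposite in AcfC and WT, which was not tested.

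The genes that read the X dose were described by role. Among the X-linked signal elements, which activate *Sxl* in proportion to the number of X chromosomes, *upd1* (also *outstretched*, a ligand of the JAK/STAT pathway; X:18305354-18309291) was called lower. It had 56.3 and 63.4 CPM in male-like AcfC and 36.7 and 34.8 CPM in male-like WT embryos, against 48.4, 75.2 and 124.0 CPM (lowest, median, highest) in female-like embryos. The male-like embryos of each genotype lay below the female-like embryos of the same genotype, while over both genotypes the classes overlapped (log2 fold change −0.74 ± 0.16, adjusted p = 0.0131). *sisA* (−0.56), *sc* (−0.94) and *run* (−0.09), which encode transcription factors, did not pass. None of the 5 genes listed as autosomal counters passed, which encode regulators that act with or against the X-linked signal elements. These were *dpn*, *gro*, *da*, *emc* and *her*, with log2 fold changes between 0.01 and 0.09. At this stage the counting period of these genes is over, and *run* and *sc* have further roles in segmentation and neural patterning.

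Of the genes downstream of or beside *Sxl*, 1 of the 8 tested, *Sxl*, was called, beside a background of 7.47% over all genes, and nothing is read from that share. The splicing targets and partners *tra*, *tra2*, *ix* and *dsx* had log2 fold changes between 0.04 and 0.09, and the splicing factors *fl(2)d*, *vir* and *snf*, required for *Sxl* autoregulation, between −0.03 and 0.07. *dsx*, the gene whose sex-specific protein directs later somatic differentiation, had 6.02 and 5.62 CPM in male-like AcfC and 6.38 and 6.86 CPM in male-like WT embryos, against 2.88, 5.95 and 9.59 CPM in female-like embryos, so that the ranges overlapped. *fru* was below the filter, with at most 2 counts. These are gene totals, and sex-specific splice forms are not resolved by them. *Unr*, *how* and *Hrb27C*, RNA-binding proteins that act with SXL on *msl-2* RNA, had log2 fold changes of 0.03, −0.03 and 0.07 and did not pass.

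Genes of the dosage compensation machinery differed in RNA level beyond *msl-2*. Of the 8 tested, *roX2* passed the filter on low counts through the male-like embryos and is left out of the count. Of the other 7, 3 were called higher and 1 lower in male-like embryos, beside a background of 1.08% higher and 6.39% lower over all genes. The gene called lower, *roX1*, lies on the X, where 37.4% of genes were called lower. *mof* (FBgn0014340, X:5873840-5876853, minus strand), the histone H4 lysine acetyltransferase of the MSL complex, had the largest difference. It had 124.1 and 122.8 CPM in male-like AcfC and 165.5 and 109.8 CPM in male-like WT embryos, against 30.8, 37.9 and 59.9 CPM (lowest, median, highest) in female-like embryos. No male-like embryo came near the highest female-like one, and the level was 3.20-fold higher in male-like embryos (log2 1.68 ± 0.15, adjusted p = 5.7e-05). *mof* is itself X-linked, and its RNA was maternally deposited, with a median of 134.9 CPM at Stage 3. It was called within AcfC alone (1.29, adjusted p = 0.0557) and within WT alone (2.03, adjusted p = 0.00432).

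*msl-3* (3L:7123213-7125533), the chromodomain subunit, had 115.7 and 102.1 CPM in male-like AcfC and 117.4 and 106.6 CPM in male-like WT embryos, against 50.5, 66.7 and 82.5 CPM in female-like embryos. The classes did not overlap (0.74 ± 0.11, adjusted p = 0.00120), but the gene overlaps *form3*, and the libraries do not tell strands apart. *msl-1* (2L:18683720-18688800), the scaffold that MSL2 binds, differed less, with 219.4 to 253.7 CPM in male-like and 170.7 to 207.6 CPM in female-like embryos (0.31 ± 0.06, adjusted p = 0.00689), again without overlap. *mle*, the RNA helicase that loads the *roX* RNAs, had 176.5 to 190.9 CPM in male-like and 161.7 to 218.5 CPM in female-like embryos (−0.05). *Clamp*, a zinc finger protein that brings the complex to the X, and *JIL-1*, a histone H3 kinase, had log2 fold changes of −0.01 and 0.07. These 3 genes did not pass.

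The *roX* RNAs, which are the noncoding components of the complex, differed widely in level. *roX1* (X:3857230-3862697), which overlaps *ec*, was abundant, and intermediate by its Stage 3 level. It had 1495 and 1332 CPM in male-like AcfC and 1537 and 1334 CPM in male-like WT embryos, against 1564, 1956 and 3173 CPM (lowest, median, highest) in female-like embryos. The highest male-like embryo lay just below the lowest female-like one, and *roX1* was called lower in male-like embryos (−0.50 ± 0.13, adjusted p = 0.0439). The call was lost without AcfC replicate 2 (−0.46, adjusted p = 0.185) or AcfC replicate 3 (−0.41, adjusted p = 0.228). *roX2* (X:11579065-11580432) was scarce, with 6.45 and 5.94 CPM in male-like AcfC and 3.19 and 5.58 CPM in male-like WT embryos, against 0.589, 1.95 and 4.52 CPM in female-like embryos. The classes overlapped. With 12 to 37 counts per male-like embryo, against 3 to 17 in female-like embryos, of which 2 reached 10 counts, *roX2* passed the filter through the male-like embryos, so no fold is given for it.

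**Figure D4:**
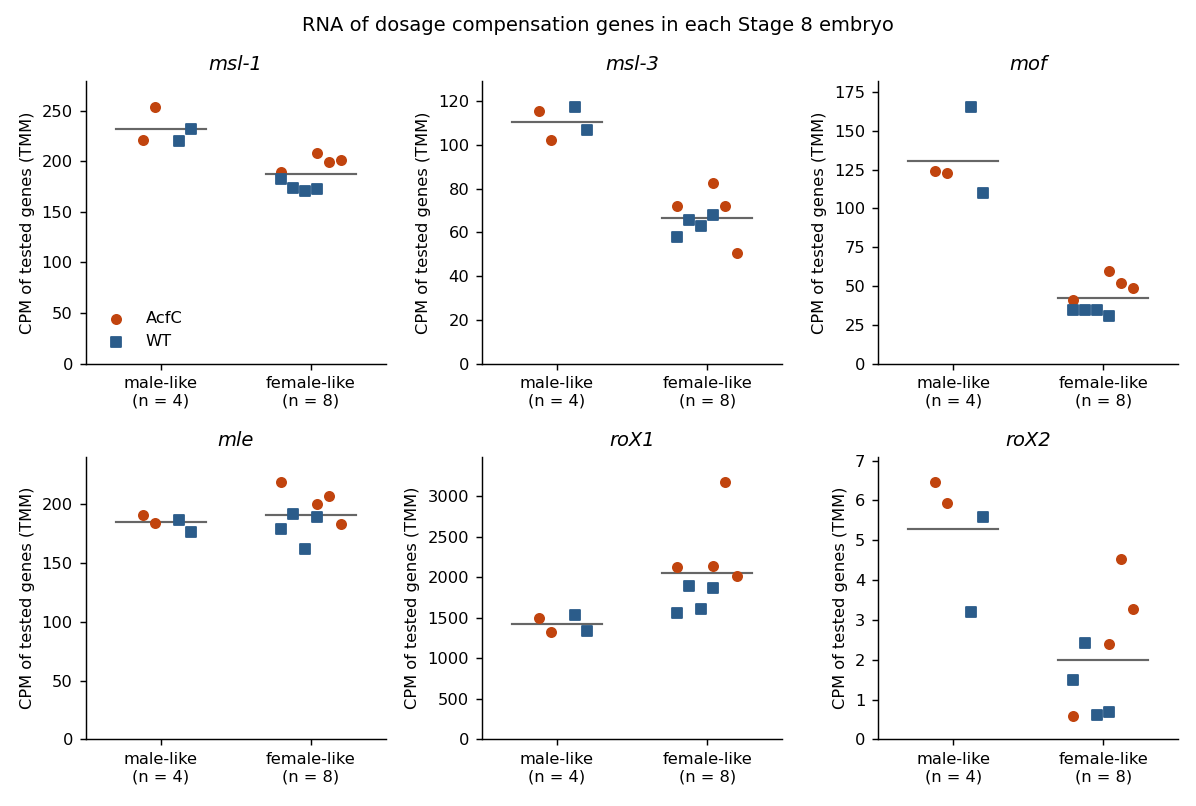
Levels (CPM of tested genes, linear axes from 0) of 6 dosage compensation genes in the 4 male-like and 8 female-like Stage 8 embryos. Each point is 1 embryo (circles AcfC, squares WT) and grey lines are class means. *msl-1*, *msl-3* and *mof* are higher in every male-like than in any female-like embryo, *roX1* is lower in every one, and the classes overlap for *mle* and *roX2*.

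*mof* headed a group of 27 X genes that were higher in male-like embryos, against the direction of the chromosome. All but *roX2*, which passed the filter through the male-like embryos, were maternal by the Stage 3 level. After *mof*, the largest differences without overlap were those of *CG7536*, *rdgA*, *hwt* and *CG43867*. *CG7536* (X:18078491-18088532), which overlaps *Ada3*, had 75.7 and 82.2 CPM in male-like AcfC and 91.1 and 69.5 CPM in male-like WT embryos, against 23.97, 30.8 and 36.7 CPM in female-like embryos (1.36 ± 0.10, adjusted p = 1.9e-05). *rdgA* (X:8907068-9029476), a diacylglycerol kinase known from the photoreceptor, had 10.1 to 15.9 CPM in male-like and 1.64 to 5.85 CPM in female-like embryos (1.38 ± 0.24, adjusted p = 0.00359). It spans 6 other annotated genes. *hwt* (X:12516634-12568452), which overlaps *Cpr11B*, had 5.79 to 13.8 CPM in male-like and 2.40 to 4.90 CPM in female-like embryos (1.34 ± 0.27, adjusted p = 0.00922). *CG43867* (X:808217-927975), which spans a further 6 genes, had 56.8 to 113.7 CPM in male-like and 27.9 to 46.1 CPM in female-like embryos (1.15 ± 0.16, adjusted p = 0.000952).

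Other X genes that were higher in male-like embryos were chosen after their values were seen. *Hsc70-3*, the HSP70 chaperone of the endoplasmic reticulum, had 364.6 to 437.1 CPM in male-like and 129.9 to 293.4 CPM in female-like embryos (1.08 ± 0.14, adjusted p = 0.000614). *ben*, a ubiquitin-conjugating enzyme of the Ubc13 type, had 223.5 to 251.1 CPM in male-like and 91.7 to 165.4 CPM in female-like embryos (0.94 ± 0.12, adjusted p = 0.00041). The autosomal gene *Uev1A*, which encodes the partner of that enzyme, was higher as well, with 220.8 to 284.0 CPM against 123.5 to 194.6 CPM in female-like embryos (0.67 ± 0.11, adjusted p = 0.00191). *ssx*, a paralog of *Sxl* that encodes a related RNA-binding protein, had 262.3 to 331.2 CPM in male-like and 169.2 to 237.3 CPM in female-like embryos (0.56 ± 0.09, adjusted p = 0.00189). Its direction was opposite to that of *Sxl*. *sn*, the fascin that bundles actin, whose gene overlaps *sws*, stood at 0.63 and *Hmr*, a chromatin protein known from hybrid incompatibility, at 0.61. All of them were separate between the classes.

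The X genes lower in male-like embryos had a median log2 fold change of −0.54 over the 492 called. By the rule for the largest changes without overlap, *Sxl* came first and 4 zygotic genes at low levels followed. The first 3 of these, *lncRNA:CR45531*, *CG9919* and *CG12061*, had 3 to 12 counts in a male-like embryo and passed the filter on low counts through the female-like embryos, so no fold is given for them. *lncRNA:CR45531* (X:6860339-6863235, overlapping *CG14434*) had 0.645 to 1.77 CPM in male-like and 1.89 to 5.75 CPM in female-like embryos. *CG9919* (X:16328437-16330759, overlapping *CalpC*) had 0.858 to 1.61 CPM in male-like and 2.09 to 4.26 CPM in female-like embryos. *CG12061* (X:23036066-23047678) had 1.07 to 2.15 CPM in male-like and 2.40 to 6.55 CPM in female-like embryos. *Sik2* (X:2055310-2061915), a salt-inducible kinase, had 3.21 to 7.70 CPM in male-like and 8.65 to 24.7 CPM in female-like embryos (−1.14 ± 0.32, adjusted p = 0.0604). The call of *Sik2* ended without AcfC replicate 2 or 3 or WT replicate 2 or 6 (adjusted p between 0.109 and 0.250). *lncRNA:CR32636* had 3, 3, 0 and 0 counts in male-like and 5 to 31 counts in female-like embryos. It also passed the filter through the female-like embryos alone, so no fold is given for it.

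Patterning genes of the X, most of them zygotic, were compared with those of the autosomes. By the Stage 3 level *peb* on the X was intermediate. Among the autosomal genes *srp* was intermediate and *hb* maternal. Of 20 listed X-linked developmental genes 16 were tested. Of these, 4 were called lower and none higher, beside 37.4% of all X genes, 18.4% of zygotic X genes and 6.39% of all genes called lower. All 16 had a log2 fold change below 0, and their median was −0.73. Among them *Sp1* and *B-H2*, with 5 to 22 and 7 to 11 counts in a male-like embryo, passed the filter on low counts through the female-like embryos. Of 18 tested autosomal patterning genes none was called, 7 lay below 0 and the median was 0.06. The median over all 7858 genes was 0.02. *fog* (X:22824317-22855194), a secreted signal for the apical constriction of invaginating cells, had 112.7 and 101.8 CPM in male-like AcfC and 112.4 and 94.2 CPM in male-like WT embryos, against 126.1, 158.7 and 213.1 CPM (lowest, median, highest) in female-like embryos. The classes did not overlap (−0.57 ± 0.10, adjusted p = 0.00500), and *fog* RNA was also maternal, with a median of 195.2 CPM at Stage 3.

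*l(1)sc*, a proneural transcription factor, had 25.5 to 59.9 CPM in male-like and 53.2 to 179.9 CPM in female-like embryos (−1.10 ± 0.26, adjusted p = 0.0216). *upd2*, a JAK/STAT ligand near *upd1*, had 2.13 to 6.26 CPM in male-like and 6.03 to 15.7 CPM in female-like embryos (−0.96 ± 0.24, adjusted p = 0.0333). Both calls ended without AcfC replicate 2 (adjusted p = 0.111 and 0.130). In both genes the classes overlapped. Other X-linked genes did not pass, and their folds ranged widely. The proneural gene *ac* stood at −1.33, the head gap gene *btd* at −0.85 and the gap gene *gt* at −0.71. *oc*, also a head gap gene, stood at −0.24. *sog*, an extracellular antagonist of Dpp, had 356.3 to 791.5 CPM in male-like and 412.5 to 954.8 CPM in female-like embryos (−0.07 ± 0.20), and the pair-rule gene *run* 138.1 to 208.6 CPM in male-like and 125.8 to 246.9 CPM in female-like embryos (−0.09 ± 0.17).

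Autosomal patterning genes varied between single embryos without following the classes. The pair-rule genes *eve*, *ftz* and *prd* stood at 0.64, 0.49 and 0.48 and the gap genes *kni* and *Kr* at −0.45 and −0.25. *ftz* had 96.1 to 191.5 CPM in male-like and 15.1 to 263.7 CPM in female-like embryos, so that its range in one class enclosed that of the other. The mesodermal genes *sna* and *twi* were close to 0 (0.06 and 0.01). None of the 18 passed the test.

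Of the genes not placed on X or Y, *Argk2* (3L:9047439-9048724), an arginine kinase gene, had the largest difference without overlap. It had 7.96 and 7.39 CPM in male-like AcfC and 8.23 and 6.86 CPM in male-like WT embryos, against 1.60, 2.21 and 5.56 CPM (lowest, median, highest) in female-like embryos (1.56 ± 0.27, adjusted p = 0.00310). *CG7857* (3L:15503600-15504894) and *CG7650* (3L:15608707-15610386), 2 genes of 3L that lie close to each other, followed. *CG7650* had 31.3 to 42.2 CPM in male-like and 14.3 to 24.9 CPM in female-like embryos (0.92 ± 0.14, adjusted p = 0.00145), and it overlaps *RhoGAP71E*. *CG7857* had 3.22 to 4.95 CPM in male-like and 1.44 to 3.13 CPM in female-like embryos. It reached 10 counts in 3 of the 8 female-like embryos and passed the filter through the male-like embryos, so no fold is given for it. Of the genes with no entry in the annotation used here, 2 were called higher and 8 lower, and the lower ones included FBgn0262735 (178.8 to 269.8 CPM in male-like and 281.3 to 615.0 CPM in female-like embryos, −0.84) and FBgn0030170 (42.8 to 54.7 CPM in male-like and 72.1 to 92.2 CPM in female-like embryos, −0.65). The chromosomes of these genes were not determined here.

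The comparison of male-like with female-like embryos was also made in each genotype. AcfC and WT share no embryo, so their folds are separate measurements. Within AcfC 45 genes were called (0.573%) and within WT 179 (2.28%), 39 and 156 of them on the X, with 2 male-like and 4 female-like embryos each. With DESeq2 the counts were 244 and 277. Over the 1316 X genes the median log2 fold change was −0.45 in AcfC and −0.35 in WT, and 1005 (76.4%) were lower in male-like embryos of both genotypes, against 16.9% of autosomal genes. The correlation across X genes was 0.55 (Pearson, a description, since genes are not replicates) and across autosomal genes 0.00. The 492 X genes called lower and the 27 called higher over all embryos had the same sign in both genotypes, to which the joint call itself contributed.

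In the interaction of sex class with genotype, no gene was called by edgeR (290 at an unadjusted p under 0.05) and 1, *RyR*, by DESeq2. Without WT replicate 6, edgeR called *HP5* on the X and *CaMKI* on chromosome 4, 2 genes in all. *mof* differed by 1.29 in AcfC and 2.03 in WT, and *Sxl* by −1.94 and −1.73, but neither interaction passed (adjusted p = 1.00 for both).

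**Figure D5:**
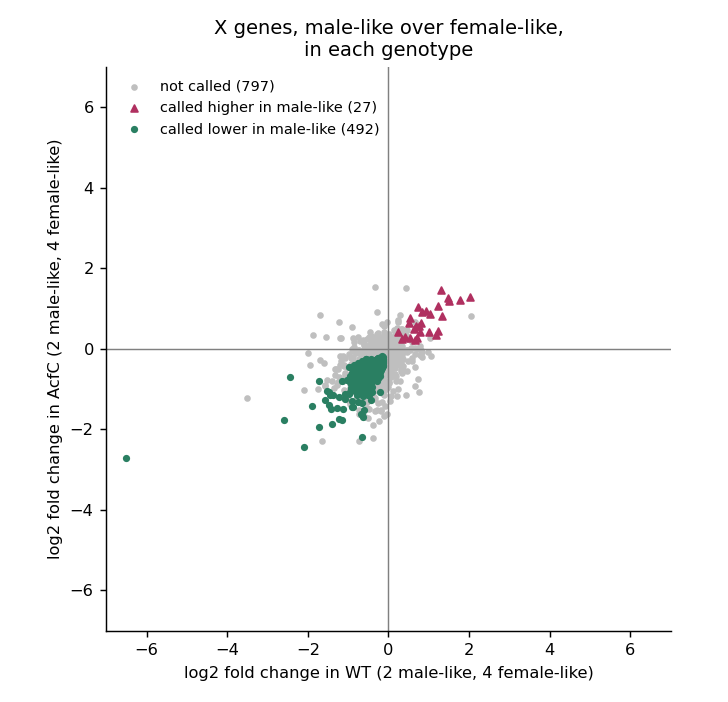
Log2 fold change of male-like over female-like embryos for each tested X gene within AcfC (vertical axis) and within WT (horizontal axis), with 2 male-like and 4 female-like embryos in each genotype. Colours mark the 492 genes called lower, the 27 called higher and the 797 not called over all 12 embryos. The called genes lie in the lower left and upper right quadrants, and the point at the far left is *lncRNA:CR32636*, which has no counts in the male-like WT embryos.

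Of the measures of developmental age, the maternal ones overlapped between the classes. The summed level of the later markers did not, but it came mostly from the X-linked gene *elav*. The summed level of the 18 autosomal patterning genes overlapped, with 2140 to 2893 CPM in male-like and 2117 to 3144 CPM in female-like embryos. Maternal genes held 90.1 to 90.8% of the tested counts in male-like and 89.1 to 90.8% in female-like embryos. Of 5 tested maternal RNAs that are cleared with age (*bcd*, *osk*, *gcl*, *pgc* and *CycB*) none was called, and their summed level was 1223 to 1438 CPM in male-like and 1169 to 1473 CPM in female-like embryos. The neural genes *elav* and *nSyb*, markers of a later embryo, together had 301.2 to 340.0 CPM in male-like and 365.4 to 461.3 CPM in female-like embryos. Every male-like embryo lay below every female-like embryo, and the part of this difference in the other results was not tested. *elav*, which is X-linked, overlaps *arg* and made up most of that sum, was called lower in male-like embryos (299.9 to 338.5 CPM, against 363.1 to 455.7 CPM in female-like embryos, −0.29 ± 0.07, adjusted p = 0.0167). *nSyb*, on 3L, had 0.963 to 2.37 CPM in male-like and 1.35 to 5.59 CPM in female-like embryos. With 5 to 11 counts in a male-like embryo it passed the filter on low counts through the female-like embryos, so no fold is given for it. *repo*, *Mhc* and *Act57B*, markers of glia and muscle, were below the filter. AcfC replicates 5 and 6, both female-like, had the lowest shares of maternal counts (89.1 and 89.4%). Without them the median log2 fold change of zygotic genes was −0.53 on the X and 0.05 on the autosomes, and 607 genes were called.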

How the data were processed

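From rRNA-depleted, nondirectional libraries the authors mapped read pairs to *Drosophila* Release 6.09 with STAR 2.5.0a and deposited raw counts per gene, with no normalization. The table has no spike-in rows. Positions, symbols and overlaps came from the Ensembl annotation of the same assembly, which lists 17155 of the 17370 genes. The 12 Stage 8 embryos were analysed, 3929008 to 6048679 tested counts per male-like and 2169169 to 5248435 per female-like embryo. Sex classes, members and gene lists were chosen with earlier results of these data known.

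Genes with at least 10 counts in at least 4 embryos were tested, without rRNA genes and *msl-2*, with the quasi-likelihood F-test (two-sided) in edgeR 4.0.16 (R 4.3.3, TMM, genotype and sex class in the model, Benjamini-Hochberg adjustment over all tested genes, cutoff 0.1 as in the study). Separate fits were made for each genotype and for the interaction. DESeq2 1.42.0 was an alternative. Summed ratios were compared by exact permutation of embryos within genotype, two-sided. P-values measure the spread between these embryos, and whether embryos were siblings is not stated. Embryos of one class and genotype differed beyond counting error (chi-square per degree of freedom 3.43 to 16.8 over 14 pairs). On simulated data for the comparison of the classes with 7743 genes, 192 tested genes carried a true log2 change of 1, of which 155 (80.7%) were called with 14 false calls.

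Sequencing indices in the labels form 2 sets, replicates 1 to 3 and 4 to 6, each with 12 indices, 11 of them shared. Each set may be a library batch. All WT males are in the second set and all AcfC males in the first. Named genes were those of the lists and, for each direction, up to 5 X genes and 5 other genes with the largest fold among called genes with a mean of at least 10 counts and no overlap between the classes. Alternatives were other filters, scalings, tools, models, thinning, and leaving out each embryo in turn.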

Additional observations from a re-analysis of the deposited data

Results flagged for a closer look

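In 10 of the 81 groups of embryos examined, 1 embryo lay far outside the rest of its class, where chance flags about 1 in 20. Female-like AcfC replicate 5 was the highest of the 8 female-like embryos in 6 of them. Its *gt* level was 320.8 CPM (others up to 111.1), its *roX1* level 3173 CPM (others up to 2139), its *fog* level 213.1 CPM (others up to 166.8), its *elav* level 455.7 CPM (others up to 406.0) and its *Sik2* level 24.7 CPM (others up to 13.7), and its log2 X to autosome ratio of zygotic genes was −2.71 (others at most −2.92). Female-like AcfC replicate 6 had the highest *l(1)sc* level (179.9 CPM, others up to 109.9) and the lowest *rdgA* level (1.64 CPM, others at least 3.92). Male-like WT replicate 5 had 42.8 CPM of FBgn0030170 (other male-like embryos at least 53.5), and female-like WT replicate 3 had the only count of *CR40801* among female-like embryos (0.208 CPM).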

How the results depend on the processing

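Leaving out 1 embryo at a time gave 385 to 633 calls, 332 to 504 of them X genes lower in male-like embryos, and 0 to 2 calls in the interaction. Within the replicate sets that held both classes (6 embryos, so fewer samples) 136 genes were called, 112 of them X genes lower in male-like embryos. DESeq2 called 690 genes in all, 244 within AcfC and 277 within WT, and 1 in the interaction. Calls not placed on X or Y were the least stable, with 11 to 145 higher and 2 to 49 lower over all alternatives. The replicate numbers did not pair the embryos (correlations of same-numbered embryos 0.0156 to 0.306), and with replicate number as a block 681 genes were called. With this replicate block the log2 differences in X to autosome ratio were −0.298 for all, −0.534 for zygotic and −0.284 for maternal genes, each with an exact p of 0.125, the smallest its sign flips allow. Over the other alternatives these ratios kept their direction and their p under 0.05. The chromosome 4 ratio over all genes changed sign without passing any test, with −0.0628 to 0.0294 when single embryos were left out and 0.0194 with the replicate block. That of zygotic chromosome 4 genes, an alternative added after seeing the data, became −0.193 as a median over genes, −0.367 without the 5% most counted genes, −0.112 with a zygotic limit of 0.2 CPM, −0.0208 without AcfC replicates 5 and 6, and −0.00484 to 0.0746 when single embryos were left out. The cause was not tested. Of 784 values for the 29 called genes named by rule, 741 kept the call, 43 lost it and none changed sign. In every alternative that tested them, 10 genes were called, but not every alternative tested each of these. The Y genes *CR46150* and *CR40801*, which are among the 10, were tested in 21 of 28 alternatives. Depth limits the weakly expressed genes, such as the lowest tercile of zygotic X genes, with a median SE of 0.40, and the Y genes, of which 2 passed the filter.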

Other observations

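Further genes called higher in male-like embryos lay outside the lists. Chromatin proteins among them were *Su(var)3-9*, the histone H3 lysine methyltransferase of heterochromatin (221.8 to 236.2 CPM in male-like and 151.4 to 202.2 CPM in female-like embryos, log2 fold change 0.35, adjusted p = 0.0110 in edgeR), and *Su(var)2-HP2*, a partner of HP1 (0.24, adjusted p = 0.0198). *Su(var)3-9* overlaps *eIF2gamma*, and the libraries do not tell strands apart. *Rab10* and *Rab35*, X-linked GTPases of vesicle traffic, stood at 0.73 (adjusted p = 0.00485) and 0.45 (adjusted p = 0.0357). In all 4 the male-like embryos lay above every female-like embryo, as in 0.751% of all genes tested. These genes were chosen after their values were seen.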
